A study of Mus musculus with 12 samples.

Results

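Efferocytosis, the recognition and engulfment of dying cells, was followed through 10 genes in microglia, the macrophages that live in brain tissue. They were the receptor tyrosine kinase genes Axl, Mertk and Tyro3, their ligand genes Gas6 and Pros1, the bridging molecule gene Mfge8, the integrin subunit genes Itgav and Itgb3, the engulfment gene Elmo1 and the phosphatidylserine receptor gene Timd4. The genes were chosen by name for their roles. All 10 were found among the 55421 genes of the count table, and all 10 were among the 18842 genes that passed the filter on low counts.

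A cell that dies by apoptosis displays phosphatidylserine, a lipid normally kept on the inner face of the plasma membrane. AXL, MERTK and TYRO3, together called TAM receptors, do not bind this lipid themselves and rely on GAS6 and protein S (encoded by Pros1) as bridges, whereas MFG-E8 bridges the lipid to integrins such as αvβ3, and TIM-4 binds it directly. Downstream, ELMO1 works with DOCK proteins to activate the small GTPase RAC1, which drives the actin rearrangement that closes around the dying cell. In the brain, MERTK and AXL are the TAM receptors best known from microglia, while TYRO3 is best known from neurons.

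The microglia came from mouse brain by fluorescence-activated sorting, were kept in culture without oxygen and glucose (oxygen-glucose deprivation, OGD, which models ischaemia in a dish), and their RNA was sequenced in bulk. There were 3 libraries in each of 4 groups. KO-recovery was Slc2a5-/-::Cx3cr1EGFP microglia given OGD for 6 h and then 24 h of recovery, WT-recovery was Cx3cr1EGFP microglia with the same 6 h and 24 h, KO-OGD was Slc2a5-/-::Cx3cr1EGFP microglia taken straight after 6 h of OGD, and WT-OGD was Cx3cr1EGFP microglia taken straight after 6 h of OGD. Slc2a5 encodes the fructose transporter GLUT5. Every group carried the Cx3cr1EGFP reporter, so no group had an unmodified Cx3cr1 locus, and the labels gave no number of reporter copies. All mice were labelled male and aged postnatal day 35 to 40, while the extraction protocol gave days 30 to 45. No library without OGD was analysed here. The labels did not say whether replicates were different animals or cultures, so each p-value measured the spread between these libraries, which may be technical.

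Several facts of the libraries bore on the results. Library totals lay between 9885259 and 19915479 counts after recovery and between 31509859 and 45347118 after OGD, so low genes had the wider error after recovery. Slc2a5 had 4 to 17 counts in KO-OGD against 40 to 58 in WT-OGD, and 0 to 1 in KO-recovery against 0 to 2 in WT-recovery, where it was too low to check the labels. Xist, the transcript of the inactive X chromosome, had 4101 to 7139 counts in KO-recovery, 0 to 3 in WT-recovery, 7040 to 10232 in KO-OGD and 5111 to 7656 in WT-OGD, which went against the male label of 9 libraries. WT-recovery replicate 1 was labelled without recovery in its treatment field and was grouped by its title. It was also the shallowest library and had the highest mitochondrial share, at 18.4% of counts, against 4.20% to 10.5% in the other libraries. KO-recovery replicates 1 and 3 carried muscle, cartilage and connective tissue transcripts, with a sum over the 12 genes of that list of 494 and 422 CPM (CPM is a gene's read count relative to the scaled total of its library), against 15.5 to 112 CPM in the other 10 libraries. Among the defining markers of microglia, Csf1r at 647 to 996 CPM was abundant in every library. Siglech had 0 counts in all libraries except those of KO-OGD, which had at most 3, and Tmem119 had 1 to 41 counts.

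Levels are given as CPM, with library totals scaled by edgeR's trimmed mean of M values (TMM), and levels of different genes are compared as CPM per kilobase (kb) of merged exons. Mfge8 had the highest level per kb of the 10 genes and Gas6 the next highest in all 4 groups, and Timd4 had the lowest. Mfge8 averaged 208 ± 21.4 CPM per kb in KO-recovery, 322 ± 128 in WT-recovery, 513 ± 26.2 in KO-OGD and 416 ± 17.1 in WT-OGD (SD, n = 3 each). Gas6 averaged 104 ± 29.9 CPM per kb in KO-recovery, 117 ± 4.38 in WT-recovery, 146 ± 19.0 in KO-OGD and 114 ± 3.50 in WT-OGD. Timd4 averaged 0.188 ± 0.0402 CPM per kb in KO-recovery, 0.217 ± 0.104 in WT-recovery, 0.237 ± 0.0767 in KO-OGD and 0.329 ± 0.00522 in WT-OGD. Its 12 libraries held between 2 and 35 counts each, the thinnest data of the set.

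Between these ends, the order of the middle genes differed by group. In KO-recovery the levels per kb ran Axl, Pros1, Mertk, Elmo1, Itgav, Tyro3, Itgb3, and the ranges of libraries overlapped for the neighbours Axl and Pros1, Pros1 and Mertk, Elmo1 and Itgav, and Itgav and Tyro3. In WT-recovery the order was Axl, Mertk, Pros1, Elmo1, Itgav, Itgb3, Tyro3, with overlap of Mertk and Pros1, Elmo1 and Itgav, and Itgb3 and Tyro3. KO-OGD ran Mertk, Pros1, Axl, Itgb3, Elmo1, Itgav, Tyro3, and no neighbours overlapped. WT-OGD ran Mertk, Axl, Pros1, Itgb3, Elmo1, Itgav, Tyro3, with overlap of Mertk and Axl and of Elmo1 and Itgav. Itgb3 therefore stood above Elmo1 and Itgav after OGD and below both after recovery, in KO and WT libraries alike.

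**Figure D1:**
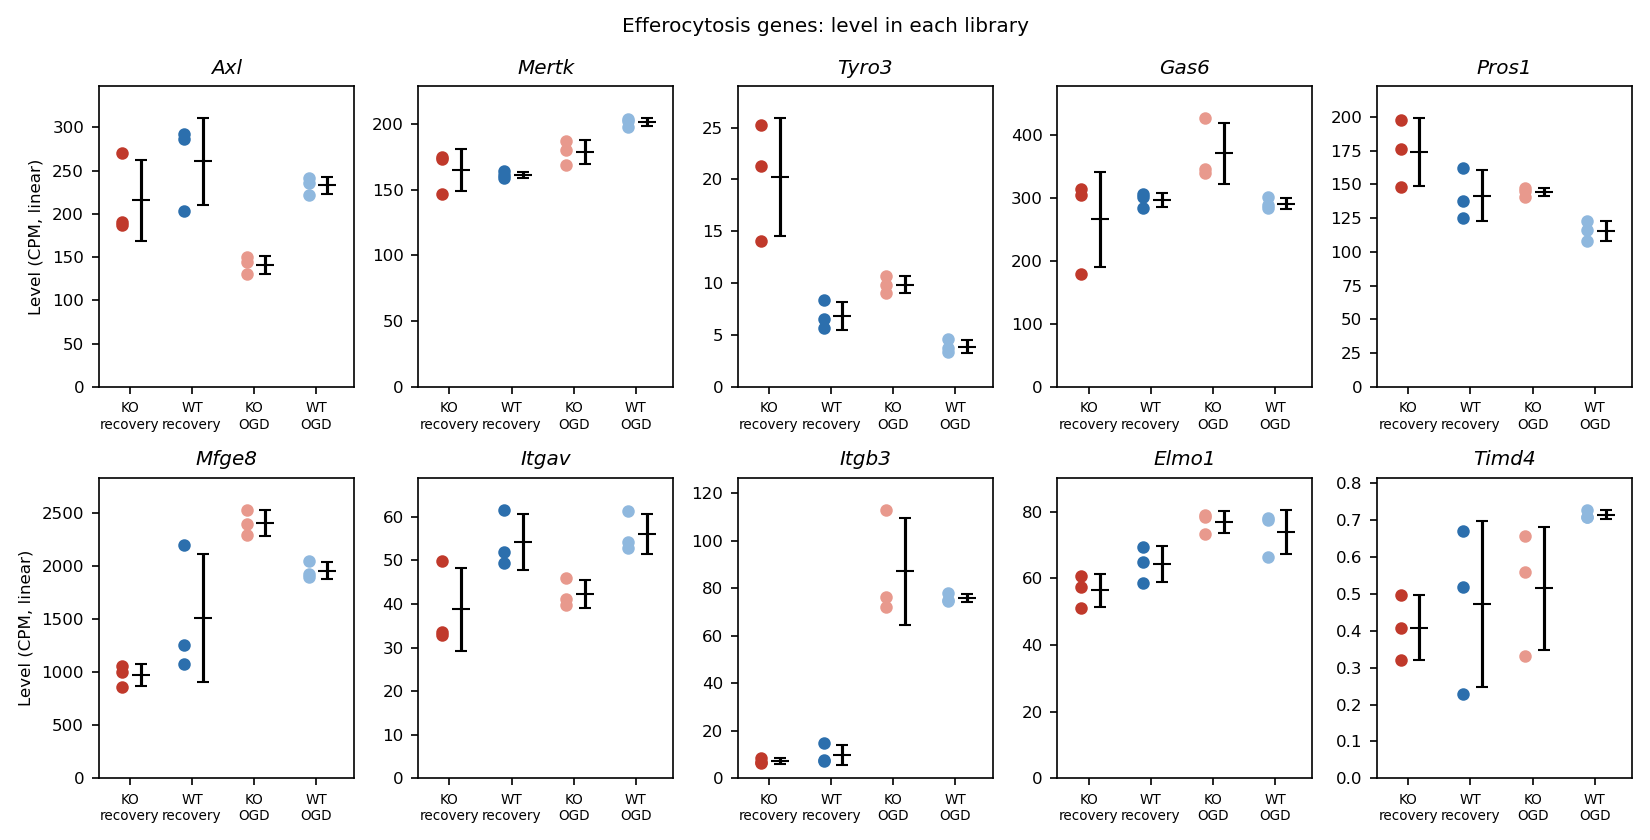
CPM of the 10 genes on a linear axis that starts at 0, with 1 point per library and, beside the points, the mean and SD of the 3 libraries of each group. Itgb3 sits at 6.44 to 14.7 CPM in the 6 recovery libraries and at 72.2 to 113 CPM in the 6 OGD libraries, and Tyro3 sits higher in KO than in WT libraries at both times.

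A gene is said to have risen or fallen where its adjusted p was below 0.05. Of the 10 genes, 1 rose and 2 fell in KO-recovery against WT-recovery, where 22.2% of the 18842 genes tested passed, 10.1% higher and the rest lower. In KO-OGD against WT-OGD 1 rose and 1 fell, where 7.49% of genes passed, 0.966% higher and 6.52% lower. In KO-recovery against KO-OGD 3 rose and 4 fell, where 59.0% of genes passed, 29.3% higher and 29.6% lower. In WT-recovery against WT-OGD 2 rose and 2 fell, where 56.8% of genes passed, 26.9% higher and 29.9% lower. Tyro3 passed in each of these 4 comparisons, Axl, Pros1, Mfge8 and Itgb3 in 2 each, Mertk, Gas6, Itgav and Elmo1 in 1 each, and Timd4 in none. The median log2 fold change of the 10 genes was -0.23 in KO-recovery against WT-recovery, where that of all genes tested was 0.01, and 0.13 in KO-OGD against WT-OGD, where it was -0.01. It was -0.22 in KO-recovery against KO-OGD, where that of all genes was 0.0002, and -0.12 in WT-recovery against WT-OGD, where it was -0.03. These 4 comparisons share libraries pairwise, so their results are not independent.

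The genes whose libraries did not overlap between groups were counted as well. After recovery, 1 of the 10 genes was higher and 1 lower in all KO than in all WT libraries, where 33.5% of all genes did not overlap. After OGD, 4 were higher and 4 lower in all KO libraries, where 30.4% of genes did not overlap. In KO-recovery against KO-OGD 3 were higher and 4 lower, where 61.2% did not overlap, and in WT-recovery against WT-OGD 2 were higher and 3 lower, where 67.1% did not overlap.

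Among the TAM receptors, Tyro3 rose in KO at both times and Axl fell in KO after OGD, while Mertk passed neither KO comparison. Tyro3 had 21.3, 25.3 and 14.1 CPM in KO-recovery and 8.33, 6.53 and 5.69 CPM in WT-recovery, from 264 to 429 and from 73 to 107 counts. It had 9.02, 10.7 and 9.85 CPM in KO-OGD and 3.32, 3.72 and 4.59 CPM in WT-OGD, from 326 to 381 and from 126 to 221 counts. Every KO library stood above every WT library of the same time, and the widest spread was that of KO-recovery, where replicate 3 was the lowest. Tyro3 was 2.98-fold higher in KO-recovery than in WT-recovery (log2 fold change 1.57, SE 0.21, adjusted p = 0.000122). Every adjusted p given here is from the quasi-likelihood test of edgeR, with Benjamini-Hochberg adjustment over the 18842 genes. It was 2.53-fold higher in KO-OGD than in WT-OGD (log2 fold change 1.34, SE 0.19, adjusted p = 0.000831). Over time, Tyro3 was 2.04-fold higher in KO-recovery than in KO-OGD (log2 fold change 1.03, SE 0.19, adjusted p = 0.000245) and 1.74-fold higher in WT-recovery than in WT-OGD (log2 fold change 0.80, SE 0.21, adjusted p = 0.00536). Libraries did not overlap in either time comparison.

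Because Tyro3 passed the most comparisons of the 10 genes, its promoter is shown, with those of Axl and Mertk beside it, which were added after the values were seen. The RefSeq promoter table (build GRCm38.p6, 250 bases before to 50 bases after the start used by RefSeq) held 9 of the 10 genes, all but Itgb3, and Elmo1 with 2 promoters. It was searched on both strands for the AP-1 motif TGANTCA, the nuclear receptor motif AGGTCA and the GC box GGGCGG, overlapping matches allowed. The sequences run 5′ to 3′ on the strand of the gene, with GC box matches in capitals (CCGCCC where the match is on the other strand). The Tyro3 promoter lies at chr2:119799264-119799563 on the plus strand, that of Axl at chr7:25788684-25788983 on the minus strand and that of Mertk at chr2:128698665-128698964 on the plus strand. The Tyro3 window thus lies inside the gene as annotated for the counts, whose first base is chr2:119797733, and does not cover that start.
Tyro3: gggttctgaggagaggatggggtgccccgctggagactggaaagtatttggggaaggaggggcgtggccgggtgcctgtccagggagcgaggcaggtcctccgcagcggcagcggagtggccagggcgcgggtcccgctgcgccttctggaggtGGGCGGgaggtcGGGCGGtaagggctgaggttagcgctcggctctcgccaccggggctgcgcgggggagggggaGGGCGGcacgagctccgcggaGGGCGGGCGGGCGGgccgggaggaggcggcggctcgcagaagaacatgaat
Axl: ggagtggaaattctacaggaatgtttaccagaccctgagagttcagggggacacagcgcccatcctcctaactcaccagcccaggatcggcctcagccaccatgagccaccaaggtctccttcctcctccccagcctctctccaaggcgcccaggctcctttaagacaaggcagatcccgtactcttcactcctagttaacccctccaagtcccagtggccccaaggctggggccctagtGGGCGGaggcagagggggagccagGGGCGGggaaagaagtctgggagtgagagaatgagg
Mertk: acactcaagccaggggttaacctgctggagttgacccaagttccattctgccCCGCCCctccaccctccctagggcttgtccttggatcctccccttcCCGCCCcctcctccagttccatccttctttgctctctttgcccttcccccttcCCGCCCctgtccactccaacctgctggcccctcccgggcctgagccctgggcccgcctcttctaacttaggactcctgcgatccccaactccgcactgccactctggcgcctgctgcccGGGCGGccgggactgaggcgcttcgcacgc
The Tyro3 window held 6 GC boxes, of which 3 overlap one another in its longest run of capitals, the Axl window held 2 and the Mertk window 4. A GC box was present in 35.7% of the 32851 promoters of the table, the AGGTCA motif in 16.3% and the AP-1 motif in 7.81%. None of the promoters of the 9 genes matched the AP-1 motif, and only that of Timd4 matched AGGTCA, which says only that these letters are not in the other windows.

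Axl had 144, 150 and 130 CPM in KO-OGD and 241, 236 and 222 CPM in WT-OGD, so the groups did not overlap and every KO library was lower. It was 1.65-fold lower in KO-OGD (log2 fold change -0.72, SE 0.15, adjusted p = 0.00806). After recovery it had 191, 187 and 270 CPM in KO-recovery and 203, 287 and 292 CPM in WT-recovery. Replicate 3 of KO-recovery lay among the WT-recovery libraries, and the difference of -0.27 on the log2 scale did not pass (95% interval -0.59 to 0.04, adjusted p = 0.206). It passed without KO-recovery replicate 3, at -0.47 (adjusted p = 0.0136), and without WT-recovery replicate 1, at -0.43 (adjusted p = 0.0357). Axl was 1.53-fold higher in KO-recovery than in KO-OGD (log2 fold change 0.61, SE 0.15, adjusted p = 0.00249), and WT-recovery differed from WT-OGD by 0.16 on the log2 scale, which did not pass (95% interval -0.15 to 0.48). Without KO-recovery replicates 1 and 3, the libraries with muscle and cartilage transcripts, the rise in KO was 0.38 and did not pass (adjusted p = 0.0730), in a fit that assumes the remaining library to vary like those of the other groups. The change over time in KO less that in WT was 0.45 and did not pass (adjusted p = 0.237).

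Mertk was the steadiest of the 3 receptors. Its libraries read 173, 175 and 147 CPM in KO-recovery, 164, 159 and 161 CPM in WT-recovery, 169, 187 and 180 CPM in KO-OGD and 198, 202 and 204 CPM in WT-OGD. All WT-OGD libraries lay above all others. Mertk fell in WT-recovery against WT-OGD by 0.32 on the log2 scale (SE 0.08, adjusted p = 0.00292). The differences of -0.18 in KO-OGD against WT-OGD (95% interval -0.35 to -0.01, adjusted p = 0.250), 0.03 in KO-recovery against WT-recovery (-0.14 to 0.21) and -0.11 in KO-recovery against KO-OGD (-0.28 to 0.06) did not pass.

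The make-up of the TAM receptor transcripts, as each gene's share of the sum of the 3 levels per kb, differed accordingly. Tyro3 made up 3.92% ± 1.25 of the sum in KO-recovery, 1.25% ± 0.386 in WT-recovery, 2.25% ± 0.118 in KO-OGD and 0.671% ± 0.123 in WT-OGD (SD, n = 3 each). It stayed the smallest share in every library. Axl made up 50.6% ± 7.87 in KO-recovery, 57.1% ± 5.49 in WT-recovery, 39.6% ± 1.98 in KO-OGD and 49.5% ± 1.47 in WT-OGD. The ratio of Axl to Mertk per kb was therefore 0.623 to 0.734 in the KO-OGD libraries against 0.935 to 1.05 in those of WT-OGD, with no overlap, and 0.921 to 1.58 in KO-recovery against 1.07 to 1.56 in WT-recovery, with overlap.

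**Figure D2:**
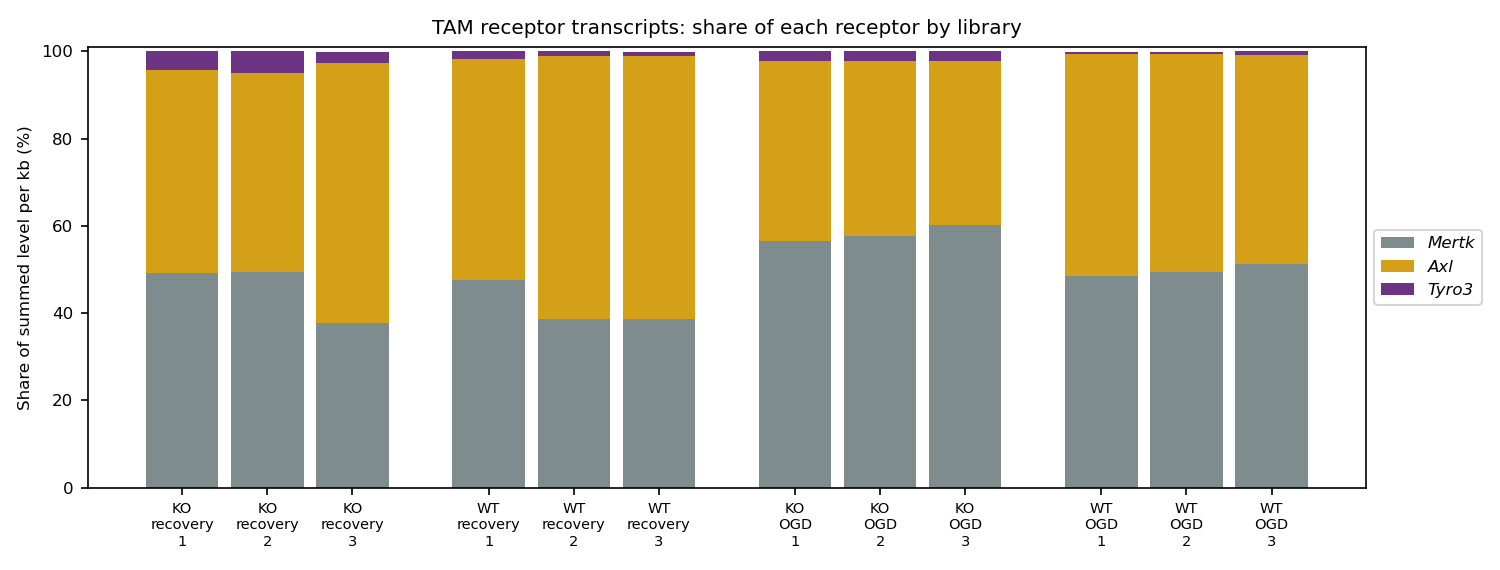
Share of Axl, Mertk and Tyro3 in their summed CPM per kb, in percent, with 1 stacked bar per library. Axl and Mertk hold nearly all of the sum, Mertk is above Axl in KO-OGD, at 56.5% to 60.2% against 37.5% to 41.4%, and Tyro3 is at most 4.99%.

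Of the ligand genes, neither Gas6 nor Pros1 passed the test between KO and WT at either time. Gas6 had 347, 427 and 340 CPM in KO-OGD and 289, 301 and 284 CPM in WT-OGD. All KO-OGD libraries were higher, and the difference of 0.35 on the log2 scale did not pass (95% interval -0.0011 to 0.70, adjusted p = 0.279). It passed without KO-recovery replicate 3, whose absence left the difference at 0.35 (adjusted p = 0.0154), without KO-recovery replicates 1 and 3, with only the 6 OGD libraries and without the filter on low counts, at 0.35 to 0.38. After recovery it had 305, 315 and 179 CPM in KO-recovery and 306, 301 and 284 CPM in WT-recovery, with replicate 3 of KO-recovery far below the other libraries. Gas6 fell in KO-recovery against KO-OGD by 0.48 on the log2 scale (SE 0.16, adjusted p = 0.0217), and the call was lost without KO-OGD replicate 2, at -0.36, without KO-recovery replicates 1 and 3, at -0.26, and with only the 6 KO libraries, at -0.45. WT-recovery and WT-OGD differed by 0.03 (95% interval -0.32 to 0.38). An exon of Gas6 overlaps an exon of Tmem255b on the other strand, and since no source used here gave the counting options, its counts are uncertain.

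Pros1 had 176, 198 and 148 CPM in KO-recovery, 162, 138 and 125 CPM in WT-recovery, 141, 147 and 145 CPM in KO-OGD and 116, 108 and 123 CPM in WT-OGD. It rose over time by 0.27 on the log2 scale in KO-recovery against KO-OGD (SE 0.11, adjusted p = 0.0435) and by 0.29 in WT-recovery against WT-OGD (SE 0.11, adjusted p = 0.0359), with no overlap in either. These were narrow calls: that in KO was lost without any 1 of the KO-OGD replicates, WT-OGD replicate 1, KO-recovery replicate 1 or 2 or WT-recovery replicate 2, at 0.15 to 0.29, and that in WT without WT-OGD replicate 1 or 2, KO-recovery replicate 1 or WT-recovery replicate 1 or 2, at 0.17 to 0.30. Both were also lost without the filter on low counts, at 0.21 in KO and 0.24 in WT, and with the summed level of astrocyte markers as a covariate, at 0.01 in KO (adjusted p = 0.956) and 0.21 in WT (adjusted p = 0.101). Between genotypes Pros1 was 0.30 higher in KO-recovery (adjusted p = 0.0644) and 0.32 higher in KO-OGD (adjusted p = 0.107) on the log2 scale, and neither passed. Both passed without KO-recovery replicate 3, at 0.40 after recovery and 0.32 after OGD, without KO-recovery replicates 1 and 3, at 0.49 and 0.32, and without the filter, at 0.31 and 0.35. The difference after recovery also passed without WT-recovery replicate 1, at 0.40, and that after OGD with DESeq2, at 0.36, and with only the 6 OGD libraries, at 0.31. The ratio of Gas6 to Pros1 per kb averaged 2.42 ± 0.444 in KO-recovery, 3.40 ± 0.335 in WT-recovery, 4.13 ± 0.471 in KO-OGD and 4.05 ± 0.389 in WT-OGD.

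The bridging molecule gene Mfge8 fell over time in KO. It had 863, 1000 and 1060 CPM in KO-recovery, 2200, 1260 and 1080 CPM in WT-recovery, 2290, 2530 and 2400 CPM in KO-OGD and 1920, 1900 and 2050 CPM in WT-OGD. KO-recovery and KO-OGD did not overlap, and Mfge8 was 2.47-fold lower in KO-recovery (log2 fold change -1.31, SE 0.20, adjusted p = 8.26e-05). In WT-recovery, replicate 1 read above every WT-OGD library while replicates 2 and 3 read below them, and the change of -0.37 did not pass (95% interval -0.79 to 0.06, adjusted p = 0.126). That replicate is the library with the conflicting treatment label and the highest mitochondrial share. Without it Mfge8 fell in WT-recovery too, by 0.75 on the log2 scale (adjusted p = 6.48e-05), and with all libraries it passed without the filter on low counts, at -0.42 (adjusted p = 0.00118).

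Mfge8 was also lower in KO-recovery than in WT-recovery, by 1.55-fold (log2 fold change -0.63, SE 0.20, adjusted p = 0.0342), with no overlap but with the lowest WT-recovery library close to the highest of KO-recovery. Without WT-recovery replicate 1 the difference was -0.27 and did not pass, and the call was also lost without KO-OGD replicate 2, WT-OGD replicate 2 or any 1 of the KO-recovery replicates, at -0.55 to -0.70, without KO-recovery replicates 1 and 3, at -0.59, and with only the 6 recovery libraries, at -0.63. After OGD, Mfge8 was 0.30 higher in KO-OGD on the log2 scale and did not pass (95% interval -0.12 to 0.73) except with only the 6 OGD libraries, at 0.30 (adjusted p = 0.0165). The change over time in KO less that in WT was -0.94 (95% interval -1.54 to -0.34) and did not pass (adjusted p = 0.0723). It passed with DESeq2, at -0.97 (adjusted p = 0.0118), without the filter, at -0.95 (adjusted p = 5.46e-07), and without WT-recovery replicate 1, at -0.58, or replicate 3, at -1.14.

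Among the integrin genes, Itgb3, which encodes the β3 subunit that pairs with αv, made the largest change over time of the 10 genes in both genotypes. It had 6.44, 6.94 and 8.62 CPM in KO-recovery and 76.3, 113 and 72.2 CPM in KO-OGD. In WT it had 14.7, 7.69 and 7.40 CPM in WT-recovery and 77.9, 75.1 and 74.5 CPM in WT-OGD. Recovery libraries held 85 to 161 counts of the gene, and none came near an OGD library. Itgb3 was 11.9-fold lower in KO-recovery than in KO-OGD (log2 fold change -3.57, SE 0.24, adjusted p = 1.46e-07) and 7.95-fold lower in WT-recovery than in WT-OGD (log2 fold change -2.99, SE 0.24, adjusted p = 8.04e-07). Between KO and WT, the differences of -0.38 after recovery (95% interval -0.98 to 0.23) and 0.20 after OGD (-0.24 to 0.64) did not pass.

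Itgav, which encodes the αv subunit, had 33.6, 32.8 and 49.8 CPM in KO-recovery, 49.3, 61.6 and 51.8 CPM in WT-recovery, 39.7, 46.0 and 41.1 CPM in KO-OGD and 54.1, 52.9 and 61.4 CPM in WT-OGD. KO libraries were the lower ones, except that KO-recovery replicate 3 lay above the lowest of WT-recovery. Itgav was 1.40-fold lower in KO-recovery than in WT-recovery (log2 fold change -0.49, SE 0.14, adjusted p = 0.0256), and the call was lost without KO-recovery replicate 1 or 2 or WT-recovery replicate 2, each time at -0.39, and with only the 6 recovery libraries, at -0.47. The difference of -0.41 in KO-OGD against WT-OGD did not pass (95% interval -0.70 to -0.12, adjusted p = 0.0977) but did without KO-recovery replicate 3, without replicates 1 and 3 of that group and with only the 6 OGD libraries, each time at -0.41, and without the filter, at -0.38. It changed little over time, by -0.12 in KO (95% interval -0.42 to 0.18) and by -0.04 in WT (-0.34 to 0.25), neither of which passed, although the change in KO was -0.36 without KO-recovery replicate 3 and -0.39 without replicates 1 and 3, and passed in both. The ratio of Itgav to Itgb3 per kb thus averaged 2.88 ± 0.291 in KO-recovery, 3.36 ± 1.35 in WT-recovery, 0.274 ± 0.0462 in KO-OGD and 0.407 ± 0.0394 in WT-OGD. Exons of Itgav overlap the gene Gm13684 on the other strand, so its counts are uncertain in the same way as those of Gas6.

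Elmo1, the partner of DOCK proteins, had 51.1, 57.3 and 60.8 CPM in KO-recovery, 58.6, 69.4 and 64.9 CPM in WT-recovery, 79.1, 73.2 and 78.4 CPM in KO-OGD and 78.1, 77.4 and 66.3 CPM in WT-OGD. It fell in KO-recovery against KO-OGD by 0.45 on the log2 scale (SE 0.09, adjusted p = 0.000680), without overlap. The change of -0.20 in WT did not pass (adjusted p = 0.0804) except without WT-OGD replicate 3, at -0.26, without KO-recovery replicates 1 and 3, at -0.22, and without the filter on low counts, at -0.25, and neither did the KO differences of -0.19 after recovery (95% interval -0.39 to 0.0078) and 0.06 after OGD (-0.14 to 0.25). Elmo1 exons overlap Gm32036 on the other strand. Timd4, whose product binds phosphatidylserine directly, had 5 to 10 counts in KO-recovery, 2 to 11 in WT-recovery, 14 to 24 in KO-OGD and 24 to 35 in WT-OGD. No comparison passed for Timd4, and the intervals were wide: -1.28 to 0.68 on the log2 scale for KO-recovery against WT-recovery and -1.17 to 0.20 for KO-OGD against WT-OGD.

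**Figure D3:**
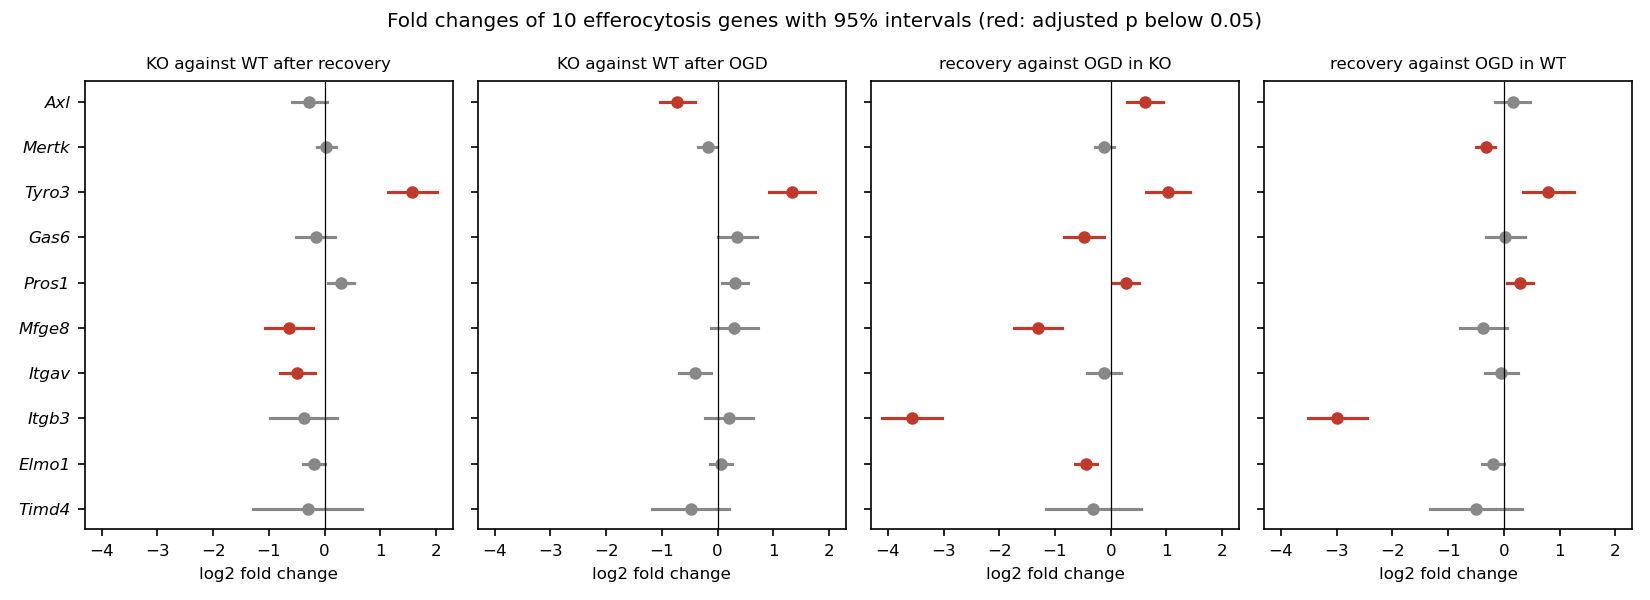
Log2 fold changes of the 10 genes with 95% intervals in the 4 comparisons, red where the adjusted p was below 0.05. Tyro3 is red and above 0 in every panel, and Itgb3 lies at -3.57 in KO and -2.99 in WT in the panels for recovery against OGD.

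The change over time in KO less that in WT was tested for all genes, and none of the 10 passed, where 5.25% of genes did, 2.89% higher and 2.36% lower. By the same quasi-likelihood test 3 of the 10, Axl, Gas6 and Mfge8, had an unadjusted p below 0.05, and DESeq2 called 1, Mfge8. A gene that passed over time in KO and not in WT, such as Axl, Gas6, Mfge8 or Elmo1, was therefore not shown to differ between genotypes in its change. The intervals of this difference ran from 0.0048 to 0.89 on the log2 scale for Axl, from -1.01 to -0.01 for Gas6, from -0.53 to 0.03 for Elmo1 and from -0.37 to 0.84 for Tyro3.

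Markers of other cells differed between the same groups. The summed level of 11 astrocyte markers, all detected in every library, was 82.6 to 121 CPM in KO-recovery against 169 to 194 CPM in WT-recovery, and 55.4 to 77.5 CPM in KO-OGD against 131 to 189 CPM in WT-OGD. KO and WT libraries did not overlap in this sum at either time. A fit with it as a covariate therefore cannot separate it from genotype, and its differences between KO and WT are extrapolations. KO-recovery and KO-OGD did not overlap in the sum either, while WT-recovery and WT-OGD did. The changes over time in KO with this covariate, and their differences from those in WT, are therefore extrapolations too. With this sum as a covariate, the Tyro3 difference was 2.24 after recovery (adjusted p = 0.000176) and 2.47 after OGD (adjusted p = 0.0103). That of Axl was -0.78 (adjusted p = 0.0271) and -1.52 (adjusted p = 0.0449), and all 4 were larger with it than without it. Other calls were lost with it: after recovery those of Mfge8, at -0.58 (adjusted p = 0.378), and Itgav, at -0.75 (adjusted p = 0.0654), and over time in KO those of Tyro3, at 0.40 (adjusted p = 0.228), and Elmo1, at -0.32 (adjusted p = 0.0911), beside those of Pros1 given above. Pros1 after recovery, at 0.58 (adjusted p = 0.0424), and the change of Axl over time in KO less that in WT, at 0.74 (adjusted p = 0.0418), passed with it and not without it. The neuron list of 12 genes summed to 39.0 to 51.1 CPM in KO-recovery, 103 to 139 CPM in WT-recovery, 9.99 to 18.1 CPM in KO-OGD and 30.4 to 46.2 CPM in WT-OGD. This sum was lower in KO at both times, where Tyro3 was higher. It was higher after recovery than after OGD in both genotypes, as Tyro3 was.

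Lists of blood-borne and resident macrophage cells differed between groups too. The platelet and megakaryocyte list of 7 genes, of which Itga2b encodes another partner of the β3 integrin, summed to 264 to 445 CPM in KO-recovery, 90.3 to 119 in WT-recovery, 22.8 to 30.3 in KO-OGD and 12.7 to 14.1 in WT-OGD. Over time 2 of its 5 tested genes rose in KO, Pf4 and Treml1, and 4 rose in WT. After recovery the sum was mostly Pf4, which the border macrophage list also holds, at 314 ± 96.2 CPM in KO-recovery and 80.0 ± 17.3 CPM in WT-recovery (log2 fold change 1.97, adjusted p = 4.70e-05). Of the other 4 tested genes of the list, Ppbp and Gp1bb fell in KO-recovery against WT-recovery, with log2 fold changes of -4.24 and -2.05, and the median log2 fold change of the 5 tested genes was -0.74. The border macrophage list of 8 genes summed to 1330 to 1470 CPM in KO-recovery, 924 to 1250 in WT-recovery, 809 to 912 in KO-OGD and 794 to 820 in WT-OGD. The monocyte list of 8 genes summed to 1310 to 1500 CPM in KO-recovery, 689 to 1090 in WT-recovery, 72.1 to 118 in KO-OGD and 126 to 198 in WT-OGD, with Plac8 at 0 in all groups but KO-recovery. It was thus higher in KO after recovery, where Fn1 alone averaged 1110 ± 125 CPM in KO-recovery and 511 ± 192 CPM in WT-recovery, and lower in KO after OGD. The microglia list of 12 genes summed to 3630 to 3980 CPM in KO-recovery, 2500 to 3700 in WT-recovery, 2220 to 2470 in KO-OGD and 2000 to 2040 in WT-OGD. Of its 11 tested genes, 3 rose and 2 fell in KO-recovery against WT-recovery, and 0 rose and 4 fell in KO-OGD against WT-OGD. Xist set WT-recovery, at no more than 0.183 CPM, apart from all other groups. It had 312 to 354 CPM in KO-recovery, 231 to 244 CPM in KO-OGD and 151 to 159 CPM in WT-OGD. Every comparison that uses WT-recovery, the change over time in KO less that in WT included, therefore also differed in Xist. There, a difference in sex cannot be told apart from one of genotype or time. KO-OGD against WT-OGD and KO-recovery against KO-OGD also differed in Xist, less widely but without overlap of libraries. Whether the groups of these comparisons differed in sex was not tested. The part of these lists and of Xist in the results on the 10 genes was not tested. In such bulk libraries fewer cells of a type and less RNA per cell cannot be told apart.

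The genes whose pattern over the 12 libraries was nearest to each TAM receptor were found by the root mean square difference of their centred log2 CPM, among 11415 genes with a mean of at least 5 CPM. Nearest to Tyro3 were Clstn1 at 0.311 and Slamf8 at 0.332, while Tyro3 itself varied by 0.877. Nearest to Axl were AU020206 at 0.154, Trip4 at 0.172 and Syt2 at 0.181, against 0.374 for the variation of Axl, and nearest to Mertk were Mocs1 at 0.0569, Gtf3c5 at 0.0582 and Zfp687 at 0.0610, against 0.143 for that of Mertk. Clstn1, which encodes calsyntenin-1, was 1.73 higher on the log2 scale in KO-recovery than in WT-recovery and 1.52 higher in KO-OGD than in WT-OGD. It was picked for its likeness to Tyro3 in these same libraries, so a difference like that of Tyro3 was set by the choice.

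Tyro3 lies at chr2:119797733-119818104 on the plus strand (GRCm38) and overlaps no other annotated gene. Its 5 nearest tested genes on each side were read as well, a choice made after the values were seen. On the left, Rpap1 was 0.40 higher on the log2 scale in KO-recovery than in WT-recovery (adjusted p = 0.00850). On the right, Jmjd7 was lower in KO, at -1.27 after recovery (adjusted p = 0.000703) and -1.24 after OGD (adjusted p = 0.00145). The other 8 neighbours passed neither comparison of KO with WT.

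The rest of the efferocytosis pathway was read through 6 lists, and the genes named are those with the smallest adjusted p in a comparison of their list. Of 20 tested receptors for dying cells other than the members, from a list of 23, 4 rose and 3 fell in KO-recovery against WT-recovery, and 2 fell in KO-OGD against WT-OGD. Over time 12 rose and 1 fell in KO-recovery against KO-OGD, and 11 rose and 3 fell in WT-recovery against WT-OGD, with median log2 fold changes of 0.56 in KO and 0.55 in WT, against 0.0002 and -0.03 for all genes. Cd93, a C-type lectin-like receptor of phagocytes, averaged 198 ± 25.9 CPM in KO-recovery, 122 ± 12.1 in WT-recovery, 32.0 ± 0.894 in KO-OGD and 36 ± 1.23 in WT-OGD. It was 0.70 higher in KO-recovery than in WT-recovery on the log2 scale (adjusted p = 0.000165). Adgrb1, which encodes the phosphatidylserine receptor BAI1 that acts through ELMO1, averaged 0.447 ± 0.133 CPM in KO-OGD and 1.86 ± 0.486 CPM in WT-OGD (log2 fold change -2.03, adjusted p = 0.00203). With the astrocyte markers as covariate that difference was -0.02 and did not pass, nor did it with libraries thinned to equal depth, at -2.17 (adjusted p = 0.0570).

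Bridging molecules and opsonins other than the members, 12 tested of 13, had 4 higher and 1 lower in KO-recovery against WT-recovery and 1 lower in KO-OGD against WT-OGD. Over time 8 rose and 1 fell in KO and 7 rose and 1 fell in WT, with medians of 0.95 in KO and 1.29 in WT on the log2 scale. Anxa1, which encodes annexin A1, averaged 1730 ± 249 CPM in KO-recovery and 878 ± 161 CPM in WT-recovery (log2 fold change 0.98, adjusted p = 9.18e-05). C3, the central complement component, rose over time by 2.76 in KO and 2.11 in WT on the log2 scale (adjusted p = 5.92e-11 and 9.06e-10). Thbs1, which encodes thrombospondin-1, averaged 22.8 ± 7.53 CPM in KO-OGD and 70.2 ± 24.4 CPM in WT-OGD (log2 fold change -1.62, adjusted p = 0.0218), and its sign turned with the astrocyte markers as covariate, at 0.76. Its call was lost without KO-OGD replicate 1 or 2 or WT-OGD replicate 2 or 3, at -1.40 to -1.49.

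In the engulfment machinery, all 19 genes were tested, and 4 rose and 3 fell in KO-recovery against WT-recovery, while 1 rose and 1 fell in KO-OGD against WT-OGD. Over time 9 rose and 3 fell in KO and 8 rose and 4 fell in WT. Bcar1, an adaptor downstream of integrins, averaged 0.782 ± 0.396 CPM in KO-recovery and 4.71 ± 1.21 CPM in WT-recovery (log2 fold change -2.51, adjusted p = 0.000176), and the difference was -1.35 and did not pass with the astrocyte covariate. Dock5 averaged 3.13 ± 0.287 CPM in KO-OGD and 8.25 ± 0.859 CPM in WT-OGD (log2 fold change -1.40, adjusted p = 0.000399). Rac2, a small GTPase of blood cells, rose over time by 1.13 in KO and 1.33 in WT on the log2 scale (adjusted p = 3.43e-08 and 8.56e-09).

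Genes that process the engulfed cell, 13 tested of 14, had 2 higher and 2 lower in KO-recovery against WT-recovery, and none passed in KO-OGD against WT-OGD, where 2 had an unadjusted p below 0.05 by edgeR and DESeq2 called 2. Over time 3 rose and 7 fell in KO and 3 rose and 6 fell in WT. Slc29a3, which encodes a lysosomal nucleoside transporter, averaged 77.2 ± 6.71 CPM in KO-recovery and 55.0 ± 8.53 CPM in WT-recovery (log2 fold change 0.49, adjusted p = 0.00361). Rab5a, of the early endosome, fell over time in KO by 1.25 on the log2 scale (adjusted p = 1.98e-07), and Ucp2, which encodes a mitochondrial carrier, rose over time in WT by 1.19 (adjusted p = 9.08e-08).

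Receptors for find-me signals and do-not-eat-me genes, 10 tested of 11, had 2 higher in KO-recovery against WT-recovery and 2 lower in KO-OGD against WT-OGD. Over time 4 rose and 3 fell in KO and 4 rose and 4 fell in WT. P2ry6, the UDP receptor, rose over time by 2.42 in KO and 2.47 in WT on the log2 scale (adjusted p = 3.73e-09 and 4.07e-09). Cd24a, of the do-not-eat-me genes, averaged 8.25 ± 0.645 CPM in KO-OGD and 19.3 ± 1.13 CPM in WT-OGD (log2 fold change -1.22, adjusted p = 0.0188), a call lost without any 1 of the OGD replicates, at -1.15 to -1.27, with thinned libraries, at -1.24, and with the astrocyte covariate, at -2.25. S1pr1, a sphingosine 1-phosphate receptor, averaged 15.2 ± 0.165 CPM in KO-recovery and 11.5 ± 1.05 CPM in WT-recovery (log2 fold change 0.40, adjusted p = 0.0165), and the call was lost without KO-recovery replicate 1 or WT-recovery replicate 1 or 3, at 0.34 to 0.39, without KO-recovery replicates 1 and 3, at 0.40, with thinned libraries, at 0.33, and with the astrocyte covariate, at 0.32.

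Regulators and sheddases of TAM receptors, 17 tested of 18, had 2 higher and 1 lower in KO-recovery against WT-recovery. None passed in KO-OGD against WT-OGD, where 4 had an unadjusted p below 0.05 by edgeR and DESeq2 called 0. Over time 4 rose and 8 fell in KO and 4 rose and 6 fell in WT. Nr1h3, which encodes the liver X receptor alpha, averaged 12 ± 0.864 CPM in KO-recovery and 20.1 ± 2.24 CPM in WT-recovery (log2 fold change -0.76, adjusted p = 0.000341), a call lost with the astrocyte covariate. The share of all genes called in each comparison, given above for the 10 genes, is also the background for these lists.

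**Figure D4:**
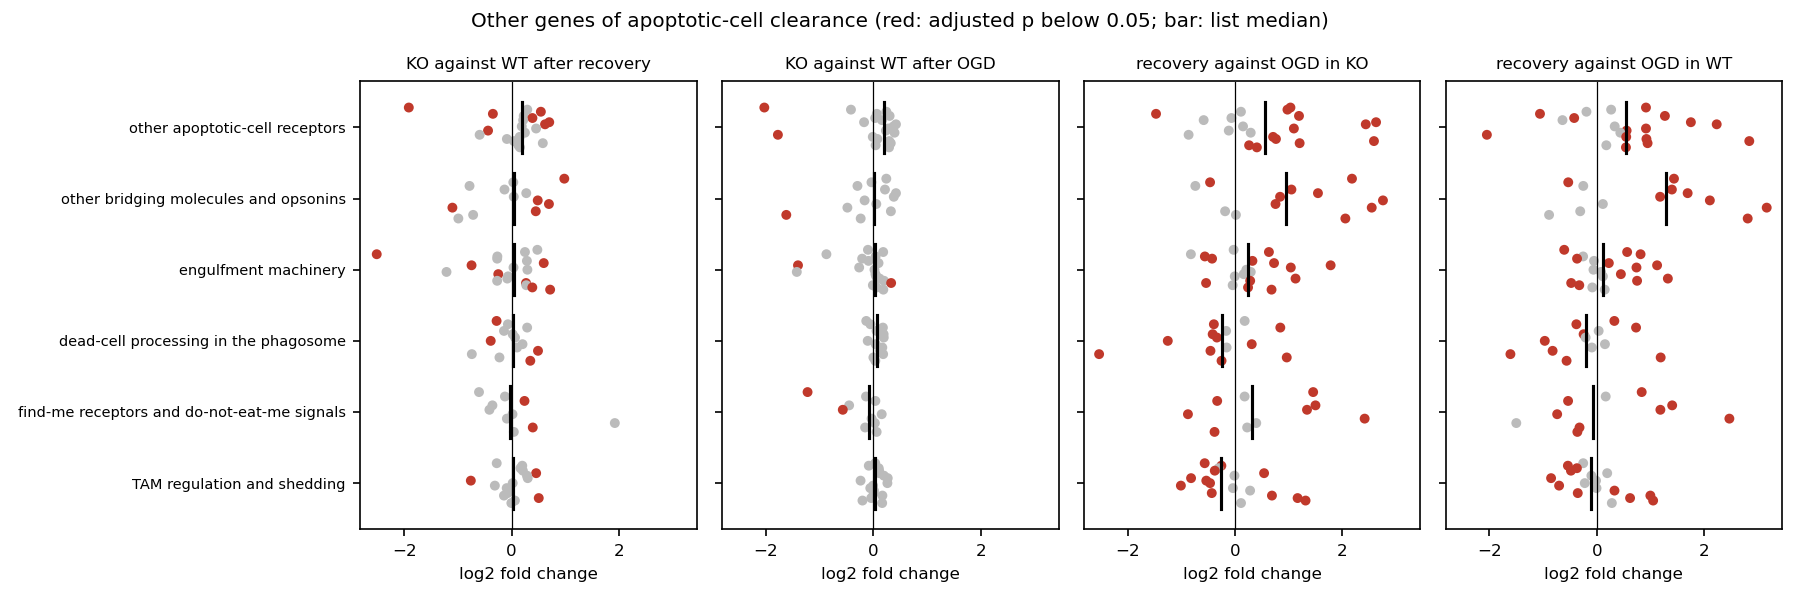
Log2 fold changes of the tested genes of the 6 pathway lists, 1 point per gene, red where the adjusted p was below 0.05, in the 4 comparisons, with the list median as a black bar. The lists of other receptors and other bridging molecules have medians of 0.55 to 1.29 in the panels for recovery against OGD, and all 6 lists have medians between -0.08 and 0.20 in both panels for KO against WT.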

How the data were processed

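Bulk RNA of sorted microglia was measured in 12 libraries, 3 in each of 4 groups taken from the sample titles. Whole-number counts of reads per gene, without normalization, are what the authors deposited. HISAT2, featureCounts and the build GRCm38 were used per the submitters' processing notes, while their versions, the annotation and the counting options, strand included, are not given in the sources used here. Genes were matched to GENCODE M21 by Ensembl identifier, with a symbol for 55240 of 55421, and promoters came from RefSeq (GRCm38.p6). No per-sample column was left unused.

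In R 4.3.3, edgeR 4.0.16 filtered low counts (filterByExpr, 18842 genes kept), scaled libraries by TMM and fitted a robust quasi-likelihood model to all 12 libraries with 1 mean per group. The p-values of each contrast were adjusted after Benjamini and Hochberg across the 18842 genes, with a threshold of 0.05. The code of the fit was also run on simulated counts with the same spread for every gene and changes in KO-OGD alone. These differ from the real libraries, so that run cannot say how the fit does on them. Intervals use the t distribution of the same fit. Replicates of a group differed by more than sampling noise, with a chi-square per degree of freedom of 6.66 to 60.2, and each counted as 1 sample.

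Alternatives were DESeq2 1.42.0, other size factors, no filter, only the 6 libraries compared, a replicate block, leaving out libraries, thinning to 9885259 counts and an astrocyte-marker covariate. Their use on the pathway lists was chosen after seeing the data. All 10 genes are named. Of each pathway list at most 3 genes per comparison, those with the smallest adjusted p among those called, could be named, and the first is printed, apart from a few results that are not reported here. The members, lists and tests were chosen with earlier results of these data known. The single-cell and single-nucleus experiments that the design text describes were not analysed here.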

Additional observations from a re-analysis of the deposited data

Results flagged for a closer look

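Of the 6 pathway lists, 8 genes passed the test of the change over time in KO less that in WT (edgeR's quasi-likelihood test with Benjamini-Hochberg adjustment). Among all genes tested 5.25% passed it, and none of the 10 members did. Of the other receptors 1 was higher and 1 lower among 20 tested, and of the engulfment machinery 1 and 1 among 19. Higher were 2 of 12 other bridging molecules, 1 of 10 find-me and do-not-eat-me genes and 1 of 17 regulators and sheddases. Of the 13 processing genes 0 passed. Itgb5, which encodes the β5 subunit that also pairs with αv, differed by -0.67 on the log2 scale (adjusted p = 0.00642), with a change of -0.12 in KO that did not pass and a rise of 0.56 in WT. Cd93 differed by 0.87 (adjusted p = 0.00231), having risen by 2.63 in KO and 1.75 in WT. These 2 calls held in all 19 alternatives. C3 differed by 0.65 (adjusted p = 0.0199) and Anxa1 by 0.74 (adjusted p = 0.0258), both with the larger rise in KO. Dock2 differed by 0.50 (adjusted p = 0.0330), with rises of 0.73 in KO and 0.23 in WT. Bcar1 differed by -1.64 (adjusted p = 0.0494), with a change of -0.82 in KO that did not pass and a rise of 0.82 in WT. S1pr1 differed by 0.55 (adjusted p = 0.0425), with a change of 0.23 in KO that did not pass and a fall of 0.32 in WT. Socs3, a feedback inhibitor of cytokine signalling, differed by 0.55 (adjusted p = 0.0195), having risen by 1.17 in KO and 0.62 in WT. The calls of C3, Anxa1, Dock2, Bcar1, S1pr1 and Socs3 were each lost in at least 1 fit that left out a single library. Those of Anxa1, Dock2, Bcar1 and S1pr1 were lost in most such fits. With the replicate block and with thinned libraries the calls of Dock2, Bcar1 and S1pr1 were lost as well. With the astrocyte covariate those of Anxa1, Dock2, S1pr1 and Socs3 were lost, and without the filter on low counts that of S1pr1.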

How the results depend on the processing

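Across 20 alternatives, 29 of the 50 fold changes of the members kept their side of the threshold in every one, 16 of them with their direction, and 21 changed side in at least 1. The direction changed in at least 1 alternative for 14, none of them called, such as Itgb3 and Timd4 in KO-OGD against WT-OGD, at -0.49 and 0.32 with the covariate, against 0.20 and -0.48. Of the 16 calls, 8 held throughout: Axl and Tyro3 in KO-OGD against WT-OGD, Tyro3 in KO-recovery against WT-recovery, Mertk, Tyro3 and Itgb3 in WT-recovery against WT-OGD, and Mfge8 and Itgb3 in KO-recovery against KO-OGD. For KO-OGD against WT-OGD, the 1411 genes and 2 members called became 2148 and 5 without a filter, 675 genes with thinned libraries, 36 genes with the astrocyte covariate, 6 members with only the 6 libraries compared and 5 without KO-recovery replicates 1 and 3, and 524 to 1742 genes and 2 to 5 members when 1 library was left out. For KO-recovery against WT-recovery, the 4175 genes and 3 members became 2756 and 1 with only the 6 libraries, 1912 genes with the covariate, and 2653 to 5279 genes and 1 to 4 members when 1 library was left out. For KO-recovery against KO-OGD, the 11113 genes and 7 members became 6814 and 4 with the covariate. For the change over time in KO less that in WT, the 989 genes and 0 members became 1542 and 1 with DESeq2, 1980 and 3 without a filter, 578 genes with thinned libraries, 642 genes and 1 member with the covariate, and 479 to 1770 genes and 0 to 1 members when 1 library was left out. The difference of Thbs1 in KO-OGD reversed to 0.76 with the covariate. The cause of these shifts was not tested. The counts showed no sign that replicate numbers pair the samples. Deviations of same-numbered libraries from their group means had correlations of -0.228 to 0.156, with 1 of 18 pairs above 0.1. With so few libraries per group this cannot show that no pairing exists. The replicate block gave 1179 genes in KO-OGD against WT-OGD, 3641 in KO-recovery against WT-recovery, 10681 in KO and 10269 in WT over time and 657 for the difference of these changes, and 2, 2, 6, 3 and 0 members in the same order. It lost the calls of Mfge8 in KO-recovery against WT-recovery, at -0.61, and of Pros1 over time, at 0.27 in KO and 0.28 in WT. Depth limits Timd4, at 2 to 35 counts, and Tyro3 in WT-recovery, at 73 to 107. The difference of changes over time needs all 4 groups and had no fit on 6 libraries.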
